A study of Homo sapiens with 3 samples.

Results

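The peaks described here lie at 6 genes of the canonical Wnt pathway and its TCF targets: CTNNB1, TCF7L2, AXIN2, LGR5, CCND1 and MYC. They come from ChIP-seq in untreated U2OS, a human osteosarcoma cell line, with 1 library made with an antibody against Spindlin1 and 1 with an antibody against C11orf84. The series also has 1 Input library without antibody, for which no file was used. All 3 libraries were from cells fixed with 1% formaldehyde. A peak was taken as a member when it had at least 1 bp within 50 kb of the gene's span in hg19, a choice made by position alone. The rule gives each span to the nearest kb, so every distance from a gene's 5′ boundary below is good to about 1 kb. It found 121 of 153378 Spindlin1 peaks and 120 of 177557 C11orf84 peaks on chromosomes 1 to 22 and X. Each antibody was used in 1 library, so spread between replicates is unknown, and no difference between the proteins or between genes was tested. A peak list cannot show whether the cells were U2OS or whether the 6 genes were expressed.

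In canonical Wnt signalling a secreted ligand stops the breakdown of β-catenin, which then enters the nucleus and binds TCF/LEF factors on DNA to switch on their target genes. CTNNB1 encodes β-catenin, TCF7L2 encodes the TCF factor also called TCF-4, AXIN2 is a scaffold of the β-catenin breakdown complex and a feedback target, and LGR5 is a receptor for R-spondins, which strengthen the signal. CCND1 (cyclin D1) and MYC are growth genes often listed as TCF targets. Spindlin1 binds methylated histone H3 tails and has been described as a coactivator of TCF/β-catenin transcription, and C11orf84, also named SPINDOC, is known as its binding partner.

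The sequences of 3 RefSeq promoters are shown, from CTNNB1 and TCF7L2, the 2 of the 6 genes for which promoter sequences were used. Distances of peaks were measured from the boundaries of the rule and not from these starts. Each run holds the 250 bases before an annotated start in GRCh38.p14, on the plus strand, 5′ to 3′, with every CG dinucleotide in capitals. They are the CTNNB1 start (chr3:41199255-41199504), the first TCF7L2 start (chr10:112949997-112950246) and a TCF7L2 start 176386 bases further along the gene (chr10:113126383-113126632). The peaks are in hg19, and no coordinate was converted between the builds.
CTNNB1 start: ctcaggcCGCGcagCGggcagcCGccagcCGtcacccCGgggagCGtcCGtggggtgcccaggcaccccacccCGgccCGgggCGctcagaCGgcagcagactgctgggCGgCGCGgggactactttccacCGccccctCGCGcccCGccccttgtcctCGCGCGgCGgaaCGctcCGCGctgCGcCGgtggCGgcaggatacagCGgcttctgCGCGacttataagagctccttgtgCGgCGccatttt
TCF7L2 first start: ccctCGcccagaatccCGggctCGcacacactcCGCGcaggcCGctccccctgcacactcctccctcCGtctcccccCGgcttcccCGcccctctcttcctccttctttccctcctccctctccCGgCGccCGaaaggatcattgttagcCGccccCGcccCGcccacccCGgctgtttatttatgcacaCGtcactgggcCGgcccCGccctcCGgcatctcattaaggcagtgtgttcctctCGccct
TCF7L2 internal start: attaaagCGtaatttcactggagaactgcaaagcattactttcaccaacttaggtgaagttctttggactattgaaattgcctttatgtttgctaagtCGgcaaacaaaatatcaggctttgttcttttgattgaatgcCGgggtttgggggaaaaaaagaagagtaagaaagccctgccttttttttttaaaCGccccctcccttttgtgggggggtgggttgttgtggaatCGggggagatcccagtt
These promoters differed widely in CG content. The CTNNB1 run held 34 CG dinucleotides and was 74.4% G or C, and 6.84% of the 35116 promoters in the RefSeq table had as many CGs in the same 250 bases. The first TCF7L2 run held 21 (68.0% G or C, as many in 30.2% of promoters), whereas the internal one held 5 (42.4% G or C, as few in 38.1%). The median promoter held 11. The TCF/LEF core was searched as CTTTGAT and CTTTGAA on both strands, and none of the 3 runs held these letters, which 5.94% of all promoters in the table did.

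Peak number differed greatly among the genes and little between the proteins. CCND1 was the densest locus, with 61 Spindlin1 and 61 C11orf84 peaks in its 115 kb window, or 53.0 per 100 kb in both lists (exact Poisson 95% interval 40.6 to 68.1). AXIN2 followed with 39 and 38 peaks, 29.1 (20.7 to 39.8) and 28.4 (20.1 to 38.9) per 100 kb. These 2 genes held 82.6% of the Spindlin1 and 82.5% of the C11orf84 member peaks. Such intervals reflect only the counting of peaks, and neighbouring peaks are not independent of each other.

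MYC had 6 and 8 peaks, 5.66 (2.08 to 12.3) and 7.55 (3.26 to 14.9) per 100 kb. TCF7L2 had 10 and 7, which over its long window came to 3.14 (1.51 to 5.78) and 2.20 (0.885 to 4.54). CTNNB1 had 4 and 4, or 2.82 (0.768 to 7.21) in both lists. The intervals of MYC, TCF7L2 and CTNNB1 overlapped. Overlap of separate intervals is not a test of a difference, so whether counting error separates these genes was not tested. LGR5 came last with 1 Spindlin1 peak and 2 C11orf84 peaks, 0.403 (0.0102 to 2.25) and 0.806 (0.0977 to 2.91) per 100 kb, and its intervals overlapped those of TCF7L2 and CTNNB1 in both lists and that of MYC for Spindlin1.

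Set beside windows of the same length along the genome, CCND1 stood far out in the dense tail and AXIN2 less far. Windows touching a peak-free stretch of 1 Mb or more were left out. The other genes did not stand out there. At least as many peaks as at CCND1 were found in 1.62% of such windows for Spindlin1 and 2.21% for C11orf84. For AXIN2 the shares were 5.17% and 6.94%. For MYC they were 23.7% and 21.5%, for CTNNB1 37.6% and 40.4%, and for TCF7L2 35.0% and 46.6%. LGR5 was on the sparse side, with as many peaks or more in 84.1% and 73.0% of windows. The median window held between 1 and 6 peaks, depending on its length and the list. The windows were not chosen to hold a gene, so these shares do not place the loci among other genes.

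**Figure D1:**
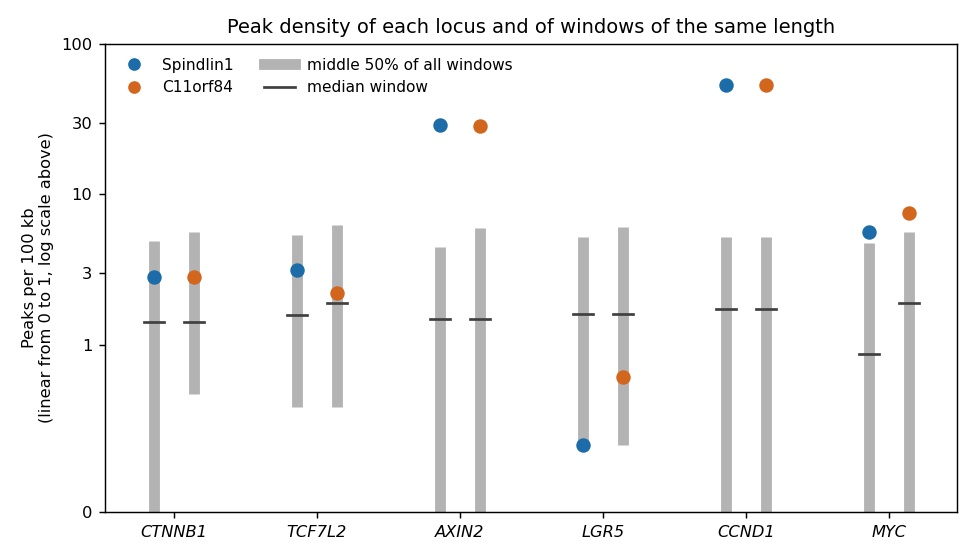
Peaks per 100 kb in the window of each gene (points, 1 library per antibody), with the middle 50% (grey bars) and the median (black lines) of all windows of the same length kept in the same list. The vertical axis is linear from 0 to 1 and logarithmic above. CCND1 and AXIN2 lie far above the grey bars in both lists, MYC just above them, CTNNB1 and TCF7L2 lie within them, and the Spindlin1 point of LGR5 (1 peak) stands at the lower edge.

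Peaks of both proteins lay at the start of CTNNB1 (chr3, 41240000 to 41282000) and nowhere else in the gene. The Spindlin1 peak (chr3:41240675-41241216) had its summit 1056 bp inside the 5′ boundary, and the C11orf84 peak (chr3:41240322-41241178) had its summit 831 bp inside it. Summit depth, the number of fragments piled up at the summit, was 21 for Spindlin1 and 24 for C11orf84. The authors' fold over local background was 5.93 for Spindlin1 and 9.27 for C11orf84, each relative to its own list. The background beneath the 2 peaks was unequal, at 2.85 times the lowest background of the Spindlin1 list (its floor) and 1.64 times that of the C11orf84 list. Measured in fragments, the summits therefore stood closer than in fold. The −log10 q was 9.50 for Spindlin1 and 15.98 for C11orf84, and the latter was as high as or higher than 98.4% of its list.

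Beyond that start, neither list had a peak for 47.1 kb, which took in the rest of CTNNB1. Past the 3′ end an overlapping pair had summits at 48674 bp (Spindlin1) and 48759 bp (C11orf84) from the 5′ boundary, at 13 Spindlin1 and 11 C11orf84 fragments. Spindlin1 also had unshared peaks with summits at 48363 bp (10 fragments) and 66681 bp (15 fragments). C11orf84 had unshared peaks 11615 bp before the boundary (11 fragments) and 79611 bp past it (10 fragments). By gene order in RefSeq, ULK4 is a protein-coding neighbour of CTNNB1, and peaks of the flanks were not assigned to either gene.

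TCF7L2 (chr10, 114710000 to 114928000) had 10 Spindlin1 and 7 C11orf84 peaks, against 5 and 6 in the median window of its length. Their median summits had 11 Spindlin1 and 10 C11orf84 fragments. It was the only one of the 6 genes with no peak within 2 kb of its 5′ boundary. The nearest were an overlapping pair just outside that limit, beginning 2386 bp (Spindlin1) and 2319 bp (C11orf84) from the boundary. The boundary is good only to about 1 kb, so this miss lies within its error. Within 5 kb all 6 genes had a peak in each list. The Spindlin1 peak (chr10:114712386-114712576) had 11 fragments and a fold of 5.57, with its summit at 2519 bp. The C11orf84 peak (chr10:114712319-114712623) had 15 fragments and a fold of 7.04, with its summit at 2470 bp, and was the C11orf84 peak of highest −log10 q at this gene (9.27). Given the error of the boundary, it cannot be told whether a called peak lay within 2 kb of the CG-rich first promoter shown above.

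A second overlapping pair inside the gene stood far from that start. The Spindlin1 peak (chr10:114886538-114886762) covered 176538 to 176762 bp from the 5′ boundary, with 11 fragments at a fold of 6.16. The C11orf84 peak (chr10:114886459-114886772) covered 176459 to 176772 bp, with 9 fragments at a fold of 3.71 over a background of 1.64 times the floor. In RefSeq the internal start shown above lies 176386 bases from the first, in GRCh38, and a further internal start, not shown, lies 179024 bases from it (4 CG dinucleotides, 48.4% G or C). These distances were taken in separate builds and from a boundary rounded to the kb, so the peaks and that start can be placed near each other but not aligned to the base. The C11orf84 peak was weak, as only 2.89% of its list had a −log10 q (3.10) as low or lower.

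The other peaks of TCF7L2 were scattered. Spindlin1 alone was called at summits of 27546, 41562 and 50902 bp in the gene, at 11, 11 and 12 fragments, and at 10535 bp before it, at 9. C11orf84 alone was called at 42029 and 158443 bp, at 9 and 10 fragments. A stretch of 107.3 kb within the gene, from 51.0 to 158.3 kb, had no peak of either list. In the 3′ flank lay 4 Spindlin1 and 3 C11orf84 peaks, among them pairs with summits at 230802 and 230612 bp (9 and 8 fragments) and at 237042 and 237048 bp (13 and 12 fragments). The Spindlin1 peak of the latter had the highest −log10 q of its list at TCF7L2 (8.58). The widest peaks, of 323 bp for Spindlin1 (chr10:114940594-114940916) and 322 bp for C11orf84 (chr10:114943399-114943720, unshared), were in this flank too. In all, 4 of the 10 Spindlin1 and 4 of the 7 C11orf84 peaks of this gene overlapped the other list, and none reached a −log10 q of 10.

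AXIN2 (chr17, 63524000 to 63558000, minus strand) was occupied at its start, along its body and far into both flanks. Within the gene span lay 16 Spindlin1 and 17 C11orf84 peaks, covering 16.2% and 19.3% of it. Upstream lay 13 and 14 peaks and downstream 10 and 7. At the 5′ boundary a Spindlin1 peak (chr17:63557564-63558037) had 21 fragments at a fold of 7.22, the deepest Spindlin1 summit of the locus. The C11orf84 peak there (chr17:63557603-63557972) had 14 fragments at a fold of 3.41, the lowest of its list in the locus. Under them the background stood at 2.16 times (Spindlin1) and 3.27 times (C11orf84) the floor. A Spindlin1 peak 128 bp from the nearest C11orf84 peak (chr17:63558100-63558286, 16 fragments, background 3.42 times the floor) had no overlap.

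Next to it in the gene was the widest C11orf84 peak of the locus, 1618 bp (chr17:63555667-63557284, 16 fragments, fold 7.41). It took in 2 Spindlin1 peaks, of 15 and 12 fragments, the first of them 909 bp wide. The widest Spindlin1 peak of the locus, 919 bp (chr17:63533817-63534735, 12 fragments, fold 6.67), lay deeper in the gene over a C11orf84 peak of 1168 bp with 12 fragments. Before the boundary an overlapping pair with summits at 1793 bp (Spindlin1) and 2009 bp (C11orf84) upstream had 13 and 14 fragments at background floor.

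The Spindlin1 peak of highest −log10 q at AXIN2 was not at the start but 26728 bp upstream (chr17:63584659-63584886, 19 fragments, fold 10.3, −log10 q 14.9). The C11orf84 peak there had 12 fragments at a fold of 6.38, with its summit 17 bp away. A neighbouring pair 23.3 and 23.4 kb upstream had 18 fragments in each list, at folds of 9.75 for Spindlin1 and 9.33 for C11orf84, both over the floor. Downstream, a Spindlin1 peak 34251 bp from the boundary (17 fragments, fold 9.24) stood against 12 C11orf84 fragments.

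The C11orf84 peak of highest −log10 q at AXIN2 had no Spindlin1 counterpart. It lay in the gene 12024 bp from the boundary (chr17:63545842-63546093), with 19 fragments at a fold of 9.82 over the floor, and the nearest Spindlin1 peak was 3532 bp away. A second unshared C11orf84 peak lay beside it, 11399 bp from the boundary, at 11 fragments. Of the 75272 C11orf84 peaks in the genome without an overlapping Spindlin1 peak, 240 (0.319%) had a fold as high as the first of these. No Spindlin1 call at this place shows only that no peak passed the threshold there.

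LGR5 (chr12, 71833000 to 71981000) had peaks of both proteins at its start and none elsewhere in its 248 kb window. The Spindlin1 peak (chr12:71833952-71834332) had 11 fragments at a fold of 5.76, with its summit 1105 bp inside the boundary. It overlapped both C11orf84 peaks, one with 13 fragments at a fold of 6.87 (chr12:71833522-71834111) and one with 11 fragments at a fold of 5.63 (chr12:71834230-71834480), and its own summit fell between theirs, at 669 and 1382 bp. All 3 backgrounds were near the floor, at 1.14, 1.00 and 1.09 times it. The remaining 196.5 kb of gene and downstream flank were without a call. Upstream the nearest peak lay 829 kb from the gene for Spindlin1 and 655 kb for C11orf84, and downstream both lists had their next peak 76 kb from it (75.8 and 76.0).

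**Figure D2:**
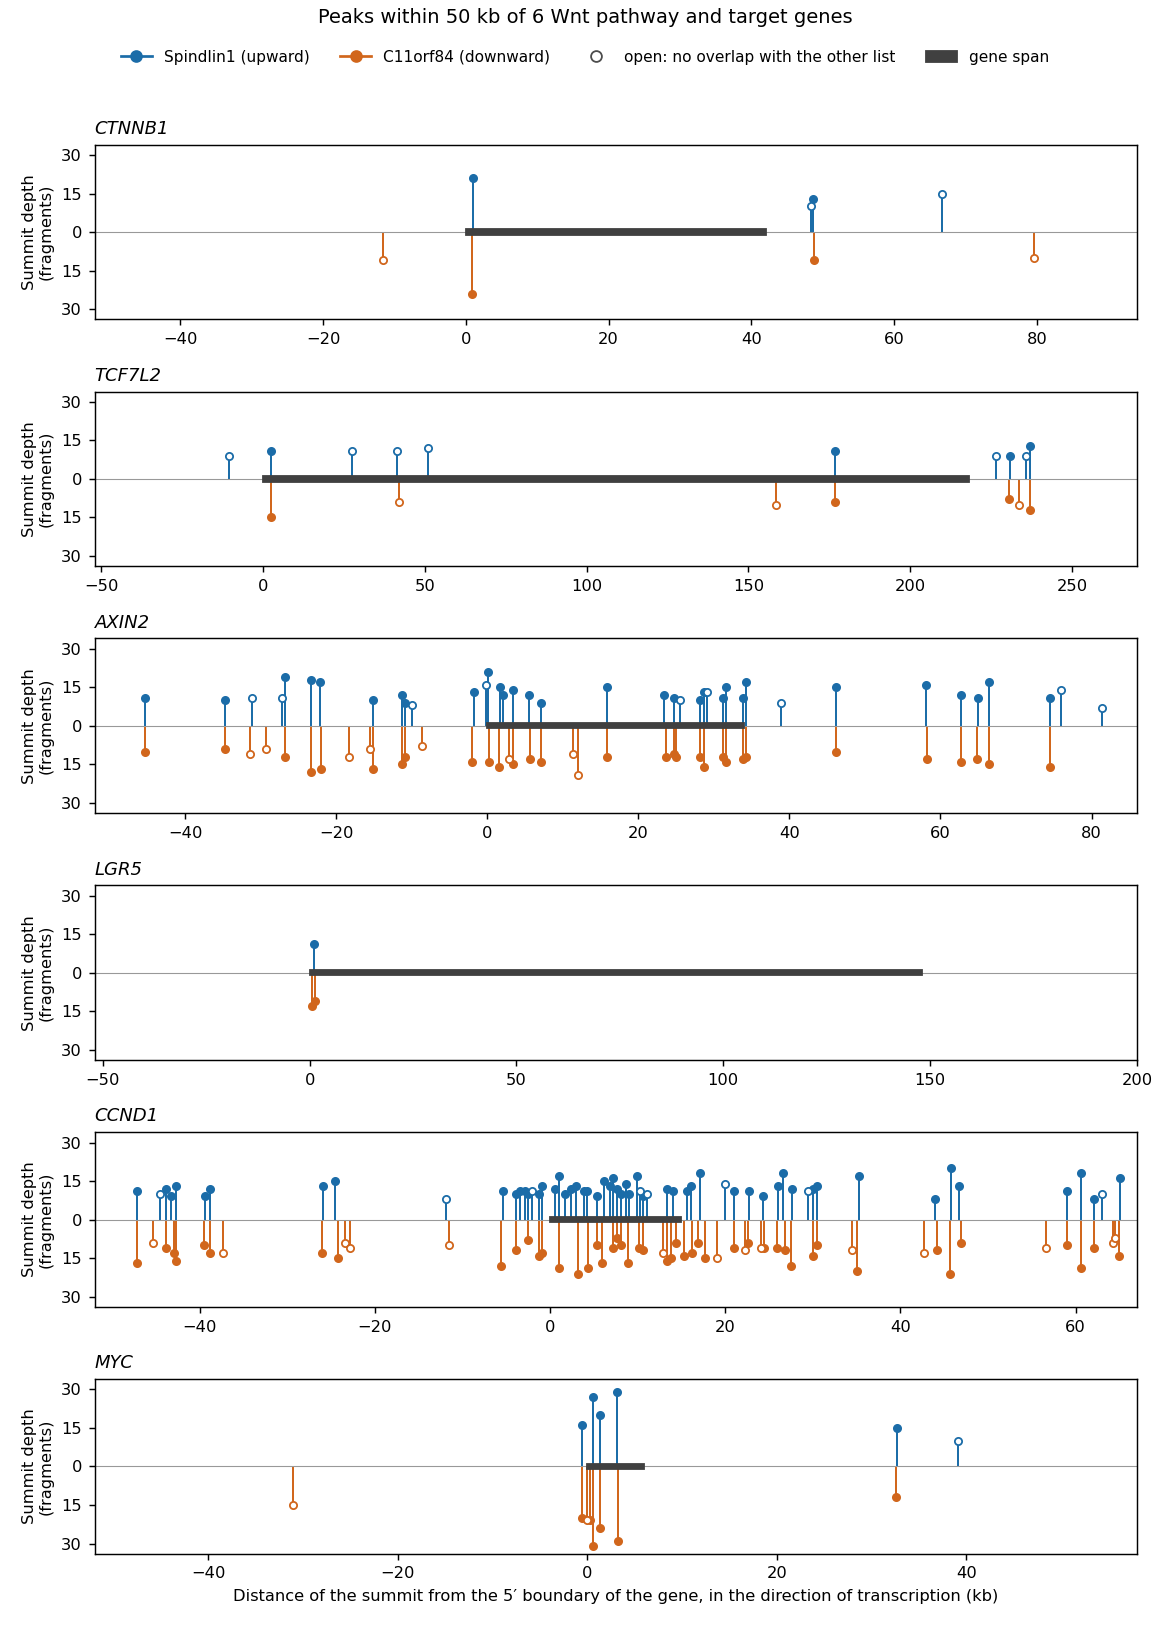
Every member peak by the distance of its summit from the gene's 5′ boundary in kb (horizontal, transcription to the right) and by its summit depth in fragments (vertical, Spindlin1 upward and C11orf84 downward). Open circles are peaks that overlapped none of the other protein, and dark bars are the gene spans. CCND1 and AXIN2 carry peaks throughout, whereas LGR5 has 1 Spindlin1 and 2 C11orf84 peaks, all at its start, and the tallest summits are at MYC (29 and 31 fragments).

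CCND1 (chr11, 69455000 to 69470000) had the largest part of its span under peaks among the 6 genes. That span, 15 kb long, held 21 Spindlin1 and 16 C11orf84 peaks, which covered 50.4% and 60.6% of the bases. In both lists the density within the gene, at 139.99 and 106.7 per 100 kb, was above that of the upstream flank (36 and 36) and the downstream flank (44 and 54). C11orf84 had fewer but longer intervals in the gene, and 5 of those that touch it each overlapped 2 or 3 Spindlin1 peaks. The widest, 1906 bp (chr11:69456490-69458395), contained 3 whole. It had 21 fragments at a fold of 10.8 over the floor, with its summit 3231 bp from the boundary, and shared the highest −log10 q of C11orf84 at this gene (16.8).

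At the CCND1 start the nearest Spindlin1 peak (chr11:69455397-69455611) had 12 fragments at a fold of 5.64. A further Spindlin1 peak (chr11:69455784-69456210) had 17 fragments at a fold of 5.69 over a background of 2.28 times the floor. A C11orf84 peak (chr11:69455391-69456303) took in both, with 19 fragments at a fold of 6.13 over 2.18 times the floor. Of the peaks within 2 kb of this start, 1 of 6 Spindlin1 and 1 of 4 C11orf84 peaks thus had a background of 2 times the floor or more. Over the whole lists the shares were 9.07% and 9.19%, and these counts are too small to set beside them.

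The peak of highest −log10 q for Spindlin1 at CCND1 lay downstream of the gene, 45802 bp from the 5′ boundary (chr11:69500644-69500961), with 20 fragments at a fold of 10.8 and a −log10 q of 16.1. C11orf84 had 21 fragments at a fold of 10.8 in the overlapping peak (chr11:69500560-69500948), level with its widest peak in −log10 q. Both stood on the floor, with a −log10 q at or above that of 99.0% of the Spindlin1 and 98.9% of the C11orf84 list. The widest Spindlin1 peak, 1328 bp (chr11:69471817-69473144, 18 fragments, fold 9.75), began just past the gene's 3′ end and overlapped 2 C11orf84 peaks. One pair further downstream rested on unequal background. The Spindlin1 peak (chr11:69489737-69490415) had 17 fragments over 5.71 times the floor, a fold of 2.81. The C11orf84 peak there had 20 fragments over 1.57 times the floor, a fold of 7.99. At the edge of the 50 kb window the last Spindlin1 peak inside had 16 fragments and the first outside, 50.5 kb from the gene, had 14. For C11orf84 the last inside had 14 and the first outside, 51.2 kb away, had 16. LTO1 and FGF19 are RefSeq neighbours of CCND1, and flanking peaks were not assigned among these genes.

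MYC (chr8, 128748000 to 128754000) had the deepest summits of the 6 loci in both lists, gathered at the gene. Of its peaks, 4 of 6 for Spindlin1 and 6 of 8 for C11orf84 came within 2 kb of the 5′ boundary. The deepest Spindlin1 summit, 29 fragments, belonged to its widest peak, 1767 bp long (chr8:128749547-128751313), with a fold of 8.21 and the highest −log10 q of the gene (16.3). The C11orf84 peak there was the widest and of highest −log10 q too (chr8:128749894-128751350, 1457 bp, 29 fragments, fold 7.67, −log10 q 15.6), and the summits were 33 bp apart.

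Closer to the start, a Spindlin1 peak with its summit at 635 bp (chr8:128748202-128748742) had 27 fragments. C11orf84 had 31 fragments 4 bp away (chr8:128748486-128748758), the deepest summit among all members. A pair at 1332 and 1376 bp had 20 and 24 fragments, and a pair 562 and 534 bp upstream had 16 and 20. The C11orf84 peak nearest the boundary (chr8:128747829-128748072, 21 fragments, fold 5.29) had no Spindlin1 overlap, although a Spindlin1 peak was 130 bp away. Of these 4 pairs around the MYC start, C11orf84 was deeper in 3 and equal in 1. Spindlin1 was deeper in the remaining MYC pair, downstream (15 against 12 fragments). Of all such pairs in the genome, C11orf84 was deeper in 54.8% and Spindlin1 in 33.0%, and the MYC pairs are too few to set this gene apart.

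Depth at MYC came with raised background. Under its peaks the median background reached 3.11 times (Spindlin1) and 2.93 times (C11orf84) the floor, and it was at least 2 times the floor for 5 of 6 and 6 of 8 peaks. In the whole lists 9.07% of Spindlin1 and 9.19% of C11orf84 peaks had such a background. The folds at MYC were accordingly moderate, from 3.77 to 8.21 and from 3.80 to 7.67, with medians of 5.49 and 5.62 against 5.72 and 5.89 in the whole lists. Away from the gene, an overlapping pair 32.6 and 32.5 kb downstream had 15 Spindlin1 fragments over 3.42 times the floor and 12 C11orf84 fragments over 1.39 times. Unshared peaks were a Spindlin1 peak 39120 bp downstream (10 fragments, 1.21 times the floor) and a C11orf84 peak 31078 bp upstream (15 fragments, 1.64 times). The part of background in the MYC depths was not tested.

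**Figure D3:**
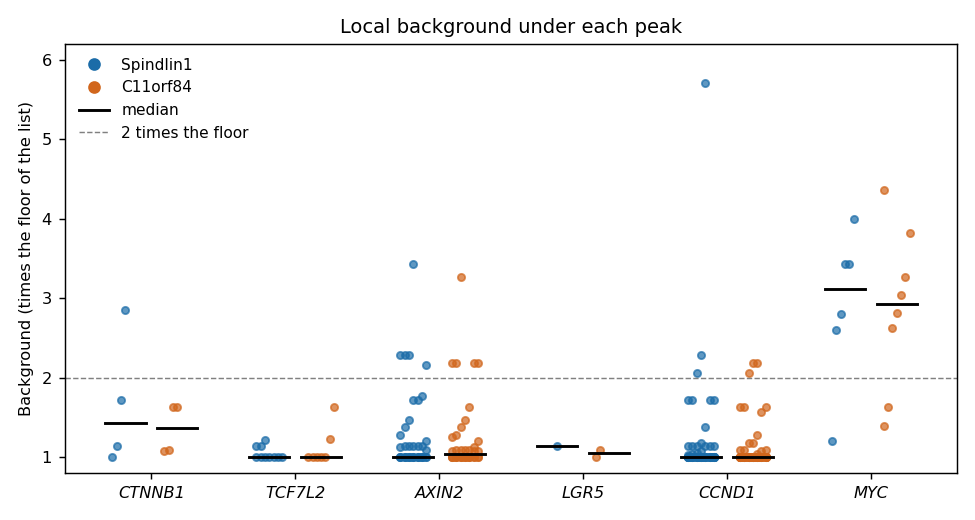
Local background under every member peak, as a multiple of the lowest background of its list (points), with the median for each gene and list (black lines) and the level of 2 times the floor (dashed). MYC has medians of 3.11 and 2.93, while the medians of TCF7L2 and CCND1 are at the floor.

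Across the 6 genes, both proteins had a peak within 2 kb of the 5′ boundary at CTNNB1, AXIN2, LGR5, CCND1 and MYC, 5 of 6 genes in each list. TCF7L2 missed this limit by less than the error of its boundary. Of the 4 kb windows laid along the genome in the same way as the longer ones, 13.4% held a Spindlin1 peak, 14.9% a C11orf84 peak and 10.4% both. The starts of other genes in hg19 were not used, so these shares show how common peaks are along the genome and not how common they are at gene starts. A peak counted as within 2 kb when any part of it was. Some summits therefore lay further off, among them deep ones at MYC (3183 and 3216 bp, 29 fragments each) and CCND1 (C11orf84, 3231 bp, 21 fragments). The 17 Spindlin1 and 16 C11orf84 peaks so counted had deeper summits than the other members, with medians of 15 against 11 and 19.5 against 12 fragments. Their folds differed less, with medians of 5.85 against 6.16 for Spindlin1 and 6.74 against 5.91 for C11orf84. MYC supplied 4 of these Spindlin1 and 6 of these C11orf84 peaks. Without it, a comparison added after the data were seen, the starts of the other genes had medians of 13 against 11 and 14 against 12 fragments. Background was also higher at the starts. Its median was 1.71 times the floor at the starts against 1.00 elsewhere for Spindlin1, and 1.91 against 1.00 for C11orf84. Without MYC these medians at the starts were 1.28 and 1.13, so both values rested largely on MYC, and that of C11orf84 the more. The parts of background and of peak width in the depth at the starts were not tested. In the whole of the 6 loci 14 peaks of each list had raised background (11.6% of Spindlin1 and 11.7% of C11orf84 members). These shares were near the 9.07% and 9.19% of the whole lists. At the gene starts lay 8 of the 14 in each list, or 4 and 2 without MYC.

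Most member peaks were common to both proteins. Of the Spindlin1 peaks, 95 of 121 (78.5%, exact 95% interval 70.1 to 85.5) overlapped a C11orf84 peak, against 69.7% of the whole list. Of the C11orf84 peaks, 91 of 120 (75.8%, 67.2 to 83.2) overlapped a Spindlin1 peak, against 57.6%. CCND1 (53 of 61 Spindlin1 and 47 of 61 C11orf84 peaks) and AXIN2 (30 of 39 and 30 of 38) set these figures. The intervals treat peaks as independent, which neighbouring peaks are not, and no excess over the whole lists was tested. Peaks covered 17.6% (Spindlin1) and 21.5% (C11orf84) of the CCND1 window, and the part of such density in the overlap was not tested. In the other 4 loci together the shares were 12 of 21 (57.1%, 34 to 78.2) and 14 of 21 (66.7%, 43.0 to 85.4), whose intervals take in the shares of the whole lists. At the gene starts of all 6 loci 15 of 17 Spindlin1 and 15 of 16 C11orf84 peaks were shared. Elsewhere in the 6 loci 80 of 104 and 76 of 104 were. In the 4 loci other than CCND1 and AXIN2, 6 of 15 Spindlin1 and 6 of 12 C11orf84 peaks outside the starts were shared. Shared members were somewhat deeper than unshared ones, with medians of 12 against 10.5 fragments for Spindlin1 and 13 against 11 for C11orf84.

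Strong and wide peaks were present in modest number. Among the members, 15 Spindlin1 peaks (12.4%, against 11.8% of the list) and 25 C11orf84 peaks (20.8%, against 15.7%) had a −log10 q of 10 or more. Of the latter, 15 were at CCND1. All 15 of the Spindlin1 ones overlapped a C11orf84 peak, as did 90.9% of all Spindlin1 peaks of that strength. Of the C11orf84 ones 92% overlapped a Spindlin1 peak, against 83.7% of all of that strength. Spindlin1 had 2 member peaks 1 kb or longer (1.65%, against 1.48%), 1 each at MYC and CCND1. C11orf84 had 6 (5%, against 2.42%), of which 3 were at CCND1, 2 at AXIN2 and 1 at MYC.

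Where peaks of the proteins could be matched singly, median depths lay close together. In the 86 pairs in which each peak was the other's best overlap, the median summit had 12 Spindlin1 and 13 C11orf84 fragments, the same as over the 97077 pairs of the genome, and the median distance between summits was 45 bp against 53 bp. C11orf84 was deeper in 47 pairs (54.7%, 43.5 to 65.4, against 54.8% of all pairs) and Spindlin1 in 29 (33.7%, 23.9 to 44.7, against 33.0%), with 10 equal. Both shares were near those of all pairs, and their intervals likewise treat neighbouring pairs as independent. TCF7L2 was the one gene where Spindlin1 was deeper in most pairs, 3 of 4, a number too small to set it apart.

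**Figure D4:**
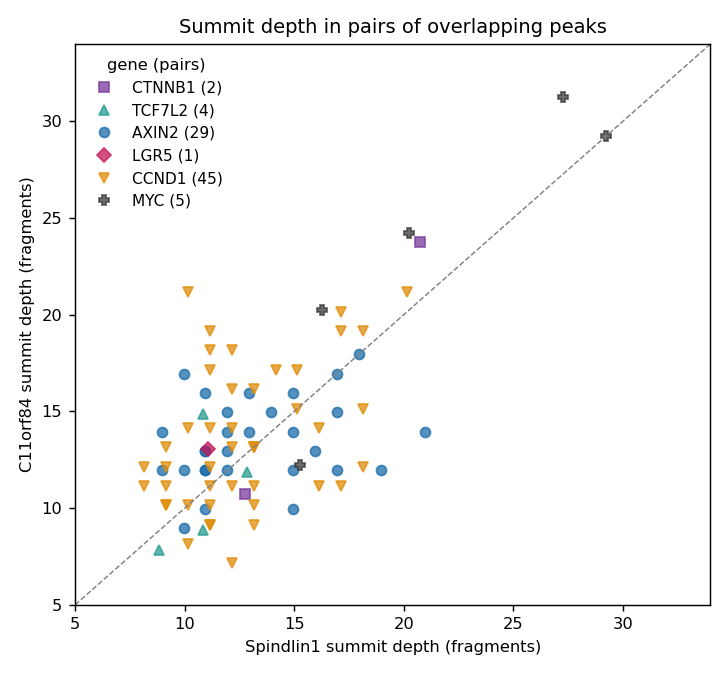
Summit depth of Spindlin1 (horizontal) and C11orf84 (vertical), in fragments, in the 86 pairs of peaks that are each other's best overlap, by gene. Points of different genes are moved slightly along the diagonal so that they can be told apart, and the dashed line marks equal depth. Points lie on both sides of the line (47 above, 29 below), and 3 pairs of MYC together with 1 of CTNNB1 lie furthest out.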

How the data were processed

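The submitters' processing notes name Bowtie 1.2.2 and hg19 without further detail. Which program called the peaks, at what threshold and over which control, is not stated in these sources. Each deposited list gives, per peak, a fold (by its values, a ratio of the summit to local background), −log10 p and q values and a score, which was not used. Positions are printed counting from 1.

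Summit depth k and background λ were recovered from the authors' fold, (k + 1)/(λ + 1), and their −log10 p, a Poisson tail. The largest error in −log10 p was 0.000174. The floor is the lowest λ of a list (Spindlin1 0.949, C11orf84 1.04 fragments), and λ of 2 or more times it is called raised. Total reads are unknown, so precision rests on these few fragments per summit. Spans came from the rule, strands from RefSeq for CTNNB1 and TCF7L2 and otherwise from general knowledge, and promoter sequences from RefSeq for 2 of the 6 genes.

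Peaks with at least 1 bp in common were called shared. Windows of equal length tiled each chromosome, and those touching a peak-free stretch of 1 Mb or more were left out. Named peaks were those nearest the 5′ boundary, of highest −log10 q and widest, every peak where a list had at most 6, and others chosen after their values were seen. Genes, rule and lists were chosen with earlier results of these data known. Recovery and overlap were tested on simulated data. Python 3.11.15, NumPy 2.4.6, pandas 2.3.3, SciPy 1.17.1 and matplotlib 3.10.9 were used. A list of other Wnt genes was not used, since no hg19 annotation was used here.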

Additional observations from a re-analysis of the deposited data

How the results depend on the processing

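Without flanks, the gene spans alone held 47 Spindlin1 and 45 C11orf84 peaks, and a −log10 q of at least 10 left 15 and 25. Flanks of 25 or 100 kb, summits in the window and background under 2 times the floor kept the totals within 1.5 times, although the last left MYC with 1 Spindlin1 and 2 C11orf84 peaks. The shared part fell to 60.3% (Spindlin1) and 60.8% (C11orf84) with 50% of both intervals in common, against 47.5% and 41.1% of the whole lists by the same rule, and to 59.5% and 60% with summits at most 200 bp apart, against 55.1% and 47.5%. It was 100% and 92% among peaks with a −log10 q of at least 10, against 90.9% and 83.7%. With that limit in both lists, where fewer peaks are left to overlap, it was 40% and 28%, against 49.0% and 30.9%. Within gene spans the C11orf84 share was 84.4%. Peaks at the starts were found at 5 of 6 genes within 1 kb and at 6 within 5 kb, in both lists. Moving the windows by 50% of their length changed the share of equally dense windows by at most 0.311 percentage points. Of the values for single genes, 28 moved beyond 1.5 times, mostly with gene spans alone or the −log10 q limit, and 56 did not. With 100 kb flanks LGR5 had 4 Spindlin1 and 5 C11orf84 peaks. Depth of about 12 fragments per summit limits every call. No paired analysis was possible because each antibody has 1 library.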
